A study of Mus musculus with 9 samples.

Results

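Genes of the Hedgehog pathway were followed in sorted hair follicle stem cells of young and old mice: the co-receptors Boc and Cdon, the receptor Ptch1, the decoy receptor Hhip, the transducer Smo, the inhibitor Sufu and the transcription factors Gli1, Gli2 and Gli3. They were chosen by gene symbol, and these 9 symbols each matched 1 of the 37980 rows of the deposited expression table. The cells were basal follicle keratinocytes of male C57BL/6J mice, sorted from back and belly skin by antibodies for high CD49f (integrin alpha 6) and for CD34, and the mice were 3, 19 or 24 months old. Each age had 3 RNA sequencing libraries, with replicate numbers 1 to 3 for the younger pair of ages and 2 to 4 for 24 months. The animals were unmanipulated as far as the labels say, with no transgene, deletion or treatment named at any age. Whether 2 libraries of an age stem from different mice is not stated in the labels, and the p-values therefore cover the spread among libraries, which may be technical.

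Hedgehog ligands bind Patched receptors with the help of the co-receptors Boc, Cdon and Gas1. In the absence of ligand, Patched holds Smoothened (Smo) inactive, and Sufu keeps the Gli transcription factors in check. Binding of ligand frees Smo at the primary cilium. Among the Gli factors, Gli2 acts mainly as an activator and Gli3 mainly as a repressor of transcription. Ptch1, Hhip and Gli1 are textbook target genes of the pathway, and Ptch1 and Hhip feed back on it by retaining ligand. In the hair follicle the pathway is known for its part in growth of the hair germ and in the upper bulge, where sensory nerves are a source of ligand.

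Values are FPKM, a measure of abundance corrected for transcript length and for the total of mapped fragments, so levels can be set side by side between genes. Changes are on the log2(FPKM + 1) scale and come with the standard error (SE) of limma. This scale understates the change of low genes. Standard errors and intervals are those of the fit over all rows unless stated otherwise. A change passed when its Benjamini-Hochberg adjusted p was under 0.05. Results are given from a fit over the 14275 rows that reached 1 FPKM in 3 or more libraries, and from a fit over 11509 protein-coding genes, which was known beforehand to call more genes. All 9 Hedgehog genes entered both fits.

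The RefSeq promoter table for mouse (build GRCm38.p6) held 7 of the 9 genes. Those found were Ptch1, Gli2, Gli3, Smo, Hhip, Sufu and Cdon. The 250 bases before the annotated start are printed for Ptch1 and Hhip, the feedback genes of the group, which had the lowest 24-month levels relative to 3 months among the 9. They run 5′ to 3′ on the minus strand, at chr13:63565736-63565985 for Ptch1 and chr8:80058009-80058258 for Hhip. Capitals mark the GC box, GGGCGG on either strand (CCGCCC on the other), a short element common in promoters of broadly expressed genes.
Ptch1: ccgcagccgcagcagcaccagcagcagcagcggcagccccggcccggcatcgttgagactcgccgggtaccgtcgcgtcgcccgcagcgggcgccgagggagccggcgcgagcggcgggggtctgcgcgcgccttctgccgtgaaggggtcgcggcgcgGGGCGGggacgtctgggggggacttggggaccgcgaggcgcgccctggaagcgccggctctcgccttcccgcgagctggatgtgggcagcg
Hhip: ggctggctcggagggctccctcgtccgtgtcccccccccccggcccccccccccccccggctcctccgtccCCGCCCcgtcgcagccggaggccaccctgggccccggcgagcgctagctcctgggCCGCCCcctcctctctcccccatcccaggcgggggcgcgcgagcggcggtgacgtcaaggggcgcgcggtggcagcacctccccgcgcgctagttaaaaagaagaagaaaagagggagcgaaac

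Both windows were rich in G and C, with 78.4% and 41 CpG dinucleotides in Ptch1 and 76.0% and 28 in Hhip. The GLI consensus GACCACCCA (TGGGTGGTC on the other strand), searched on both strands, was in 0 of the 7 windows and in 0.225% of 32851 promoter windows of the same length. That says only that these letters are not in these 250 bases. The GC box was in 5 of the 7, and in 32.7% of all windows. Smo and Cdon had none, and the Cdon window held 1 CpG.

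Averaged over the 9 libraries, Boc was the most abundant of the 9 genes at 34.6 FPKM, followed by Smo at 20.8 and Ptch1 at 16.6 FPKM. The 3 Gli genes followed at 9.55 (Gli2), 8.75 (Gli1) and 7.63 FPKM (Gli3). Sufu (3.68), Cdon (3.10) and Hhip (1.82 FPKM) were lowest. Gli2 and Gli1, and Gli1 and Gli3, overlapped within their SD at every age, while Gli2 lay above Gli3 at 3 months without overlap of the libraries (9.90 to 12.5 against 6.10 to 9.15 FPKM). Smo and Ptch1 overlapped within their SD at 3 and 19 months but not at 24 months, where Smo was higher. Sufu and Cdon overlapped within their SD at 24 months, and Cdon and Hhip at 19 months. Boc stood above Smo in all 9 libraries.

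**Figure D1:**
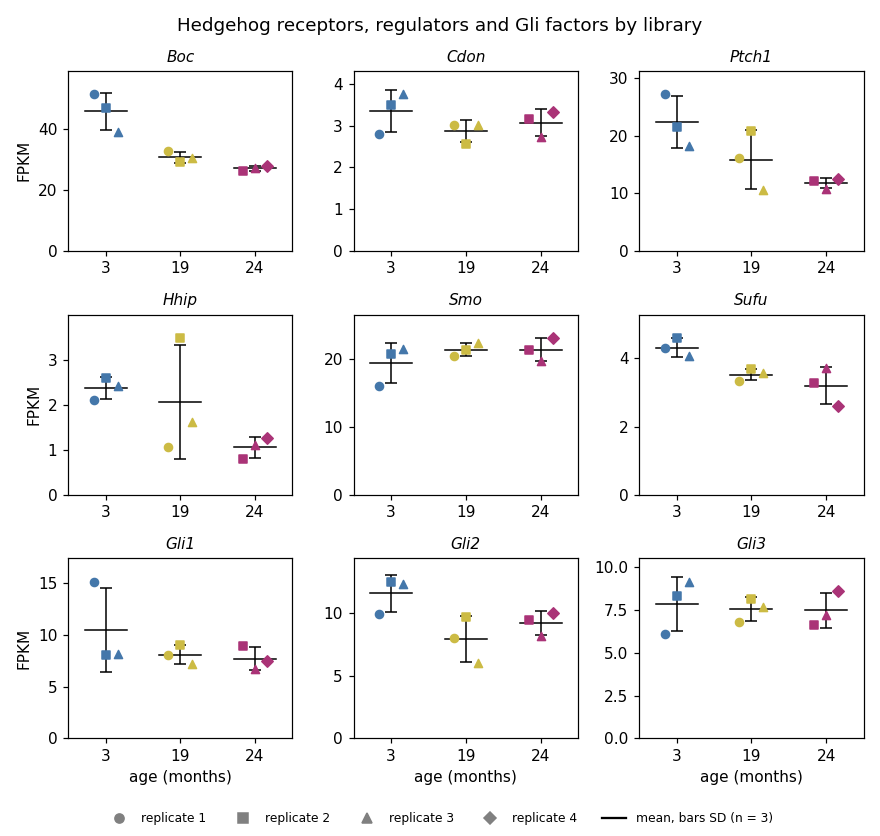
FPKM of the 9 Hedgehog genes (vertical axes from 0) by age in months; each symbol is 1 library, the long bar is the mean and the short bars are the SD of 3 libraries. Boc at 24 months (26.3 to 27.8) lies below all libraries of the other ages, while Gli3 and Smo overlap between ages and Gli1 has 1 high library at 3 months (15.1).

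At 24 against 3 months, Boc and Ptch1 fell in the protein-coding fit, to 27.1 from 45.8 and to 11.7 from 22.3 FPKM. In the fit over all rows 0 of the 9 genes passed, whichever ages were compared. Over protein-coding genes 2 of 9 were lower and 0 higher at 24 against 3 months, where 2.34% of all genes passed as lower, and 3.84% in either direction. At 19 against 3 months 0 of 9 passed (0.964% of all genes as lower, 1.56% in either direction), and at 24 against 19 months 0 of 9 (0.217% and 0.93%). The F test over the 3 ages called 1 of 9, Boc, and 4.54% of all genes. Over all rows the matching percentages were 0.28, 0.203 and 0.049, and 0.224 in the F test. At an unadjusted limma p under 0.05 over all rows, 2 of the 9 were lower at 19 against 3 months (Gli2 and Boc), where 6.75% of all rows were. At 24 against 3 months 4 were lower (Boc, Ptch1, Hhip and Sufu), against 9.5% of all rows. At 24 against 19 months there were 0, against 5.49%.

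Of the 9 estimates, 8 lay below 0 at both 19 and 24 months against 3 months, with medians of -0.23 and -0.35, and 7 at 24 against 19 months, with a median of -0.07. Over all 14275 rows 49.6%, 49.9% and 51.6% of the estimates lay below 0, and the medians were 0.00, 0.00 and -0.01. The 2 comparisons with 3 months share its libraries. Every 24-month library was below every 3-month library in 4 genes, Ptch1, Hhip, Sufu and Boc, and the same was so of 11% of all rows. Gli2, Sufu and Boc had this separation at 19 against 3 months (10.9% of all rows), and Boc at 24 against 19 months (9.44%). No gene of the 9 had all older libraries above all younger ones.

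**Figure D2:**
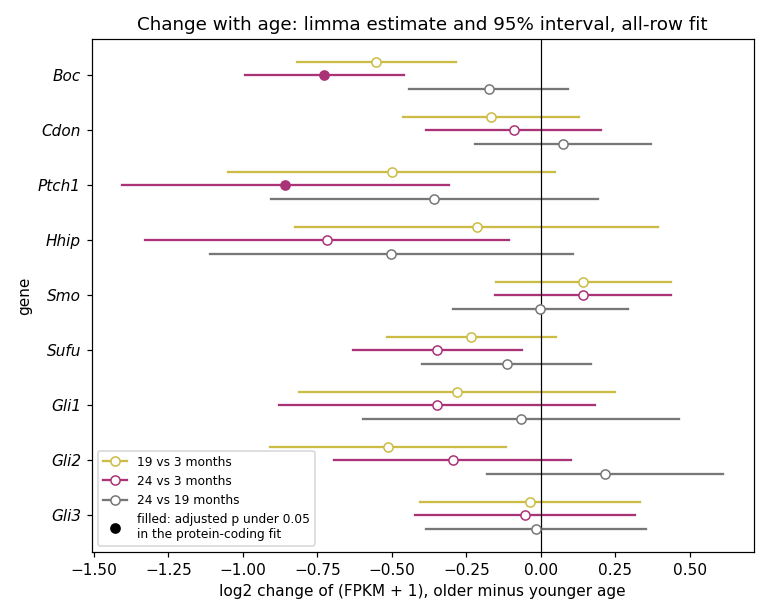
Change of each Hedgehog gene on the log2(FPKM + 1) scale (horizontal axis, older minus younger age) for the 3 age comparisons; points are limma estimates of the fit over all rows, lines their 95% intervals, and filled points have an adjusted p under 0.05 in the protein-coding fit. The filled points are Boc (-0.73) and Ptch1 (-0.86) at 24 against 3 months.

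The libraries of 3 months carry 1 series of consecutive running numbers in the labels, and those of 19 and 24 months another. The labels name no batch. A difference in pool or preparation between 3 months and the older ages cannot be told apart from age. The comparison of 24 with 19 months lies inside the second series of numbers, and there no Hedgehog gene passed. In bulk RNA, fewer cells that express a gene and less RNA per cell cannot be told apart.

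Boc (ENSMUSG00000022687) encodes a cell surface protein of the immunoglobulin family that binds Hedgehog ligands together with Patched. Its 3-month libraries 1, 2 and 3 stood at 51.5, 46.9 and 39.2 FPKM, its 19-month libraries at 32.8, 29.2 and 30.4, and its 24-month libraries 2, 3 and 4 at 26.3, 27.3 and 27.8 FPKM. The 3 ages did not overlap, and the spread was narrowest at 24 months (27.1 ± 0.762, SD, n = 3), against 30.8 ± 1.85 at 19 and 45.8 ± 6.20 at 3 months. From 3 to 24 months the change was -0.73 ± 0.12 (SE; 95% interval -0.99 to -0.46). Its limma adjusted p was 0.0101 in the protein-coding fit, and 0.0545 over all rows. In the protein-coding fit it passed in each of 9 fits that left out 1 library, with a largest adjusted p of 0.0429. Over all 29 alternative settings the adjusted p ranged from 0.0101 to 0.278, and 12 passed. These 12 include the protein-coding fit itself and its 9 fits with 1 library left out. Over all rows, no fit that left out 1 library passed (smallest limma adjusted p = 0.0722). At 19 against 3 months the estimate was -0.55 ± 0.12 (limma adjusted p = 0.0518 in the protein-coding fit and 0.141 over all rows, range over alternatives 0.0344 to 0.393). It passed there in 1 alternative, the protein-coding fit without 3-month replicate 3 (0.0344). At 24 against 19 months it was -0.17 ± 0.12 (adjusted p = 0.632 over all rows).

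Cdon (ENSMUSG00000038119), the close relative of Boc, was listed at 2.79, 3.50 and 3.76 FPKM at 3 months, 3.02, 2.57 and 3.01 at 19 months and 3.17, 2.72 and 3.33 at 24 months. These groups overlapped, and the estimates were -0.17 ± 0.13 at 19 and -0.09 ± 0.13 at 24 against 3 months (limma adjusted p = 0.602 and 0.74 over all rows). The 95% interval at 24 against 3 months was -0.39 to 0.20, and that of Boc was -0.99 to -0.46. Cdon was the lower of the 2 genes, and the scale used understates the change of low genes. The difference between the 2 genes was not tested.

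Gas1, a co-receptor that is anchored in the membrane by a lipid, is not among the 9 genes and was singled out after its values were seen. It stood at 48.2, 47.8 and 62.1 FPKM at 3 months, 81.2, 76.5 and 76.4 at 19 months, and 90.7, 60.5 and 75.9 at 24 months. All 19-month libraries lay above all 3-month libraries, while the lowest 24-month library lay within the 3-month range. The estimates were 0.57 ± 0.17 and 0.51 ± 0.17 against 3 months (limma adjusted p = 0.0849 and 0.081 in the protein-coding fit, 0.224 and 0.176 over all rows). Without 24-month replicate 3 the second passed in the protein-coding fit (0.0343), and its range over alternatives was 0.0343 to 0.461.

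Ptch1 (ENSMUSG00000021466) encodes the main receptor, and its transcript is itself induced by Gli factors. Its 3-month libraries stood at 27.2, 21.5 and 18.2 FPKM, its 19-month libraries at 16.2, 20.8 and 10.5, and its 24-month libraries at 12.04, 10.7 and 12.4 FPKM. The 24-month libraries were all below the 3-month ones and close to each other (11.7 ± 0.877, SD, n = 3), and the 19-month libraries spread over both ranges (15.8 ± 5.17). The change from 3 to 24 months was -0.86 ± 0.24 (95% interval -1.41 to -0.31), with a limma adjusted p of 0.0341 in the protein-coding fit and 0.135 over all rows. Over 29 alternatives the adjusted p ranged from 0.0132 to 0.327, and 5 passed. All 5 were the protein-coding fit itself or that fit with 1 library left out. In the protein-coding fit the call was lost without 3-month replicate 1 (adjusted p = 0.1) or 2 (0.102), and without 24-month replicate 2 (0.0678), 3 (0.0737) or 4 (0.0905). At 19 against 3 months the estimate was -0.50 ± 0.24 (adjusted p = 0.393 over all rows).

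Hhip (ENSMUSG00000064325), a membrane-bound decoy that sequesters ligand, was the lowest of the 9. It was listed at 2.11, 2.58 and 2.41 FPKM at 3 months, 1.06, 3.48 and 1.62 at 19 months and 0.793, 1.11 and 1.25 at 24 months. The 24-month libraries lay below the 3-month ones, and at 19 months 1 library was higher than all others. The estimate from 3 to 24 months was -0.72 ± 0.26 (95% interval -1.33 to -0.11), and it did not pass (limma adjusted p = 0.107 in the protein-coding fit, 0.211 over all rows, range over alternatives 0.0555 to 0.371).

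**Figure D3:**
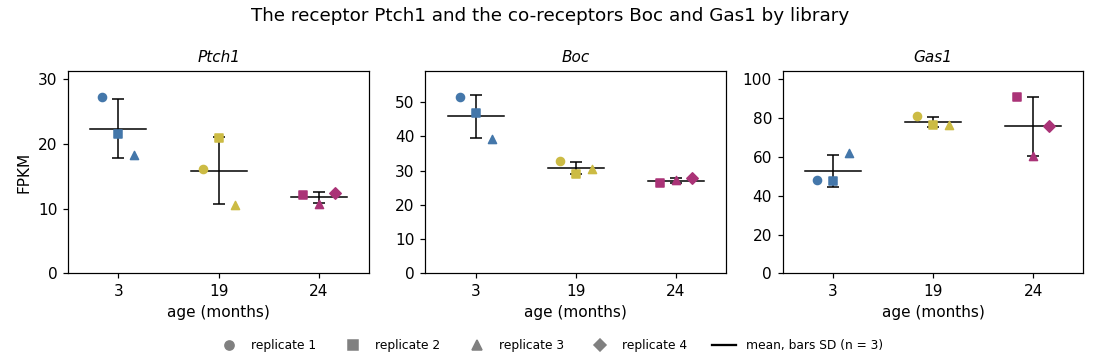
FPKM of the receptor Ptch1 and the co-receptors Boc and Gas1 (vertical axes from 0) by age in months; symbols are libraries, long bars means and short bars SD of 3 libraries. At 24 months Ptch1 and Boc lie below their 3-month libraries, while Gas1 spreads from 60.5 to 90.7, against 47.8 to 62.1 at 3 months.

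Smo (ENSMUSG00000001761), the transducer that Patched restrains, stood at 16.05, 20.8 and 21.5 FPKM at 3 months, 20.5, 21.3 and 22.4 at 19 months and 21.4, 19.7 and 23.1 at 24 months. Apart from 3-month replicate 1, the libraries lay within 19.7 to 23.1 FPKM. The estimates were 0.14 ± 0.13 at both older ages (limma adjusted p = 0.656 and 0.587 over all rows), with a 95% interval at 24 months of -0.15 to 0.44.

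Sufu (ENSMUSG00000025231), the cytoplasmic inhibitor of Gli factors, was listed at 4.30, 4.60 and 4.07 FPKM at 3 months, 3.34, 3.68 and 3.56 at 19 months, and 3.29, 3.71 and 2.61 at 24 months. All older libraries were below all 3-month libraries. The estimates were -0.23 ± 0.12 and -0.35 ± 0.12 and did not pass (limma adjusted p = 0.433 and 0.199 over all rows, 0.53 and 0.241 in the protein-coding fit).

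Gli1 (ENSMUSG00000025407), the Gli factor whose own transcript is a standard readout of the pathway, stood at 15.1, 8.05 and 8.17 FPKM at 3 months. The 19-month libraries stood at 8.04, 9.03 and 7.23 FPKM, and the 24-month libraries at 8.89, 6.70 and 7.53. The high library, 3-month replicate 1, carried most of the difference in means. With it, the estimates against 3 months were -0.28 ± 0.23 at 19 and -0.35 ± 0.23 at 24 months (limma adjusted p = 0.625 and 0.452 over all rows). Without it they were -0.01 and -0.07. The same library was the highest of the 9 for Ptch1 and Boc and the lowest for Smo and Gli3.

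Gli2 (ENSMUSG00000048402), the main activator, stood at 9.90, 12.5 and 12.3 FPKM at 3 months, 7.97, 9.68 and 6.02 at 19 months and 9.40, 8.20 and 10.02 at 24 months. The 19-month libraries were all below the 3-month ones, by a narrow gap between 9.68 and 9.90 FPKM, and the 24-month libraries overlapped both. The estimates were -0.51 ± 0.17 at 19 and -0.30 ± 0.17 at 24 against 3 months (limma adjusted p = 0.273 and 0.393 over all rows, 0.165 and 0.355 in the protein-coding fit).

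Gli3 (ENSMUSG00000021318), the main repressor, was listed at 6.10, 8.33 and 9.15 FPKM at 3 months, 6.81, 8.16 and 7.71 at 19 months, and 6.65, 7.20 and 8.60 at 24 months. The ranges overlapped throughout. The estimates were -0.04 ± 0.16 and -0.05 ± 0.16 (limma adjusted p = 0.943 and 0.889 over all rows), and their sign turned under several scalings and left-out libraries. The 95% interval at 24 against 3 months was -0.42 to 0.32.

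RNA of the ligands was at or near 0 in these sorted cells. Shh had a value in 2 of 9 libraries, the higher 0.0185 FPKM, and was listed at 0 in 7. Ihh was listed at 0 in 5 libraries with a highest value of 0.155, and Dhh at 0 in 4 with a highest value of 0.193 FPKM. None entered a test. No limit can be put on their level, because the depth is unknown and a 0 in this table can be a failed estimate. Of the 10 genes for ligands, their acylation and release, 2 passed the filter on low values, and neither passed the test. Scube2, a secreted protein that helps release ligand and the gene of this list with the smallest F-test p, ranged from 4.70 to 11.9 FPKM (limma adjusted p = 0.763 at 19 and 0.846 at 24 against 3 months, over all rows).

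The other genes of the pathway were counted in 4 lists, and in the fit over all rows 0 genes of these lists passed at any comparison. Of 5 further receptors and co-receptors counted, 3 were tested, with a median change of 0.32 at 24 against 3 months, and 0 passed in the protein-coding fit. At an unadjusted limma p under 0.05 over all rows, 1 was higher, Gas1, and 0 lower, against 9.1% and 9.5% of all rows.

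Signal transduction genes, those for kinases, ubiquitin ligases and partners that act between Smo and Gli, were tested in 26 of 27 cases found in the table. In the protein-coding fit 2 of these were lower at 24 against 3 months (2.34% of all genes were) and 0 higher. At an unadjusted limma p under 0.05 over all rows 7 were lower and 0 higher, against 9.5% and 9.1% of all rows. The median over the list was -0.13. Spop, an adaptor that brings Gli2 and Gli3 to a ubiquitin ligase, was at 101, 112 and 88.6 FPKM at 3 months, 90.2, 96.1 and 88.7 at 19 months and 61.7, 72.6 and 63.8 at 24 months. The 24-month libraries lay below all others. It fell from 3 to 24 months in the protein-coding fit, by 0.60 ± 0.13 (SE of that fit, limma adjusted p = 0.0198; 0.0749 over all rows; range over alternatives 0.0198 to 0.327). The call was lost without 3-month replicate 2 (0.0847), 24-month replicate 2 (0.0599) or 24-month replicate 4 (0.0832).

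Fkbp8, a membrane-anchored immunophilin known as an antagonist of Hedgehog signalling in the neural tube, was at 57.9, 51.2 and 47.2 FPKM at 3 months. It was at 37.6, 35.98 and 29.9 FPKM at 19 months and at 38.8, 30.1 and 31.4 at 24 months, below all 3-month libraries. It fell from 3 to 24 months in the protein-coding fit, by 0.63 ± 0.15 (SE of that fit, limma adjusted p = 0.027; 0.0908 over all rows; range over alternatives 0.022 to 0.31). The call was lost without 3-month replicates 1 (0.0766) or 2 (0.0823) and without 24-month replicates 3 (0.0652) or 4 (0.11).

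Of 29 primary cilium genes, the structure on which Smo and Gli act, 29 were tested over all rows and 28 in the protein-coding fit, and 0 passed in either. At 24 against 3 months the median change over this list was -0.02, with 3 genes higher and 3 lower at an unadjusted limma p under 0.05 over all rows, where 9.1% of all rows were higher and 9.5% lower. Ift80, an intraflagellar transport subunit with the smallest F-test p of the list, was at 13.0 to 13.6 FPKM at 3 months and 7.71 to 10.4 at 24 months, without overlap. Its estimate was -0.51 ± 0.12 (limma adjusted p = 0.104 over all rows and 0.0724 in the protein-coding fit).

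The table held 10 further target genes counted here, of which 7 were tested, with a median change of 0.10 at 19 and -0.10 at 24 against 3 months. In the protein-coding fit Ccnd1 was lower at 19 against 3 months, and 0 passed at 24 against 3 months. At an unadjusted limma p under 0.05 over all rows, 1 was higher and 2 were lower at each of these ages. Of all rows 7.22% were higher and 6.75% lower at 19 months, and 9.1% and 9.5% at 24 months. Ccnd1, the cell cycle regulator cyclin D1, was at 43.1, 38.2 and 39.2 FPKM at 3 months, 21.0, 29.6 and 25.3 at 19 months and 30.4, 26.3 and 35.3 at 24 months. All older libraries were below the 3-month range. It fell by 0.66 ± 0.15 at 19 months in the protein-coding fit (limma adjusted p = 0.0433; 0.162 over all rows; range over alternatives 0.0398 to 0.389). The call was lost without 3-month replicates 1 (0.165), 2 (0.0911) or 3 (0.0866) and without 19-month replicates 1 (0.114), 2 (0.0532) or 3 (0.138). Bcl2, an inhibitor of cell death with the smallest F-test p of the list over all rows, was at 4.33 to 4.85 FPKM at 3 months and 2.31 to 3.22 at 19 months. Its estimate was -0.58 ± 0.12 (limma adjusted p = 0.146 over all rows and 0.0989 in the protein-coding fit).

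**Figure D4:**
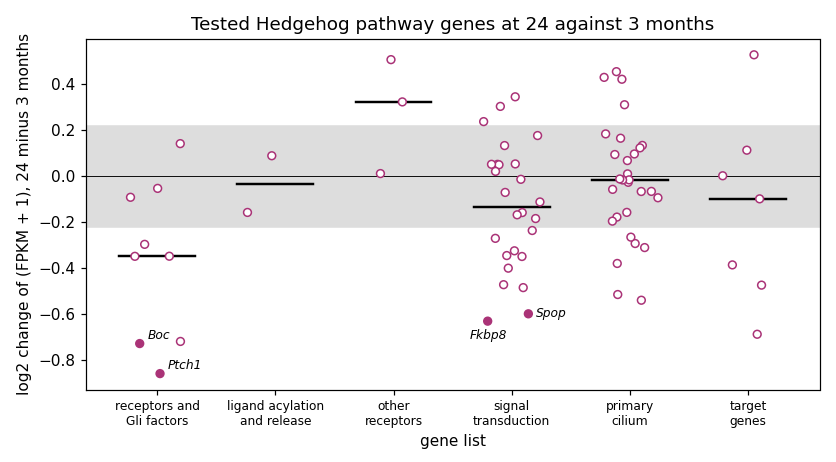
Change at 24 against 3 months on the log2(FPKM + 1) scale (vertical axis) of each tested Hedgehog pathway gene, by list; bars are list medians, the grey band spans the quartiles of all 14275 rows (-0.22 to 0.22), and filled points have an adjusted p under 0.05 in the protein-coding fit. Ptch1 lies lowest at -0.86, and the cilium genes centre on 0 (median -0.02).

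The rows most like Gli1 across the 9 libraries, by Pearson r of log2(FPKM + 1), were 0610012G03Rik (0.946), 2700073G19Rik (0.937), Fam108a (0.936), Ogfr (0.929) and Rbm45 (0.927). All 5 were highest in 3-month replicate 1, as Gli1 was, and without that library their r fell to between 0.461 and 0.717. The rows most like Ptch1 were Vps37b (0.938), Fam110b (0.935), Dpf1 (0.930), Crispld1 (0.928) and Slc7a2 (0.927). Without 3-month replicate 1 these stayed between 0.884 and 0.912. Of 14274 other rows, 10 had an r over 0.9 with Gli1 and 20 with Ptch1. These values are descriptions over 9 libraries of 3 ages.

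Transcripts of the sorting markers were high in every library, Cd34 at 403 to 632, Itga6 (CD49f) at 72.7 to 117 and the basal keratin Krt14 at 3235 to 6619 FPKM, and none passed the test (smallest limma adjusted p = 0.344 over all rows). Krt15 was listed at 0 in all 9 libraries and Krt5 in all of 19 months. Of 18 dermal fibroblast and papilla markers, cells that respond strongly to Hedgehog ligand, 11 were under 1 FPKM in all 9 libraries, and Sox2 and Sox18 were at 0. Their summed level was 84.8 to 88.0 FPKM at 3, 78.3 to 129.8 at 19 and 118 to 138 at 24 months. Of the 6 tested, 4 had an estimate below 0 at 24 against 3 months, with a median of -0.10. Crabp1 was higher at 24 against 3 months in the protein-coding fit but did not pass over all rows. In the protein-coding fit 7 of 11 tested sebaceous markers (Cidea, Elovl3, Fa2h, Far2, Scd1, Scd3 and Soat1) were lower at both older ages, and Mgst1 was higher at 24 months. Of all genes 0.964% passed as lower at 19 and 2.34% at 24 against 3 months. Over all rows Fa2h, Far2 and Scd1 passed at 19 months, and Fa2h and Scd1 at 24 months. The sebaceous sums were 335 to 430, 362 to 407 and 444 to 538 FPKM at 3, 19 and 24 months. Both tested endothelial markers, Ramp2 and Egfl7, were lower at 24 against 3 months in the protein-coding fit, where 2.34% of all genes were. Only Ramp2 passed over all rows. The endothelial sums were 11.8 to 14.2, 9.67 to 10.7 and 5.62 to 7.24 FPKM, with Emcn at 0. The melanocyte marker Tyrp1 was lower at both older ages in the protein-coding fit only, with list sums of 37.9 to 46.3, 31.9 to 33.0 and 29.2 to 34.7 FPKM. The calls that follow are of the protein-coding fit, and none of them passed over all rows. Of all genes in that fit, 1.56% passed at 19 and 3.84% at 24 against 3 months, and 0.93% at 24 against 19 months. Against 3 months, Nfatc1 and Sox9 were higher and Lef1, Krt79 and Fcer1g lower at 19 months. Gata6 and Acta2 were higher and Lgr5 and Lgr6 lower at 24 against 3 months. Ly6a and Fcer1g were higher and Plin2 lower at 24 against 19 months. The part of these cells in the Hedgehog results was not tested.

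In the RefSeq annotation, Ptch1 and Sufu overlapped no other gene. Gli1 overlapped Arhgap9, which was at 0.153 to 1.11 FPKM, and Smo the pseudogene Gm13717, at 5.16 to 7.24 FPKM. Boc overlapped the long noncoding Gm30064 and the microRNA gene Mir3081, a very short row listed at 0 in 4 libraries and otherwise at 1489 to 3372 FPKM. Gli2, Gli3, Hhip and Cdon overlapped noncoding genes. Whether the counting used strand is not stated in the labels, so reads of such partners may enter these values.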

How the data were processed

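RNA from sorted follicle stem cells was sequenced, with 3 libraries at each of 3 ages. The deposited values are FPKM per gene and library, made by the authors with TopHat and Cuffdiff on build NCBIM37, per the submitters' processing notes (no version or setting is named there). Low values did not resolve into whole reads, which leaves the sequencing depth unknown and counting intervals out of reach. FPKM summed to 553388 to 738569 per library over protein-coding rows, and the median over tested protein-coding genes was 10.0 to 11.3. Over the whole table the sums were 25022200 to 68767500 at 3 months, 12093500 to 20767100 at 19 months and 8704870 to 20340600 at 24 months. Every 3-month sum lay above every older sum, and 3-month replicate 1 had the highest. The part of this difference in the Hedgehog results was not tested. In 36 rows all libraries of 1 age were listed at exactly 0 while another age reached at least 5 FPKM.

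Groups came from the age label. The 14275 rows that reached 1 FPKM in 3 or more libraries were fitted with limma 3.58.1 (R 4.3.3) on log2(FPKM + 1) with a mean-dependent prior variance, all 9 libraries in 1 model, two-sided, with Benjamini-Hochberg adjustment over all rows and a threshold of 0.05. A second fit held 11509 protein-coding genes by GENCODE M21 gene type, without the rows listed at 0. The script was tested on simulated data. Alternatives were pseudocount 0.1, no filter, at least 5 FPKM, rows listed at 0 left out, quantile and median scaling, a robust prior, 2 ages at a time, the replicate number as a block, and each library left out. The block and the left-out libraries in the protein-coding fit were added after the data were seen. Named were the 9 genes, Shh, Ihh and Dhh, other list genes called in either fit or with the smallest F-test p of their list, the 5 rows most like Gli1 and Ptch1, the sorting markers, and markers called in either fit. Gas1 was added after its values were seen. Some genes of the pathway are not reported here and were left out of the lists. The genes and lists were chosen with earlier results of these data known.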

Additional observations from a re-analysis of the deposited data

How the results depend on the processing

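Of the 9 genes' estimates, 26 of 486 with 1 library left out and 8 of 288 under other settings turned sign. Against the 0 Hedgehog genes called over all rows at 24 against 3 months, the filter at 5 FPKM called 1, the robust prior 1 and the protein-coding fit 2; in the F test the robust prior and the protein-coding fit called 1 each. Leaving out 1 library gave 0 to 1, 0 to 2 and 0 to 2 called genes at 19 against 3 months, at 24 against 3 months and in the F test, over both fits.

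Counts of all rows called at 19 against 3 months were 40 as reported, 22 with no filter, 180 in the protein-coding fit, 21 with median scaling, 72 with a robust prior and 20 with 2 ages. At 24 against 3 months they were 29, and 8, 442, 11 and 224 in the same order without the last, 47 with the filter at 5 FPKM and 0 with rows listed at 0 left out. At 24 against 19 months they were 7, 107 in the protein-coding fit, 0 with rows listed at 0 left out, 27 with a robust prior and 15 with 2 ages. In the F test they were 32, 17 with no filter, 523 in the protein-coding fit, 0 with rows listed at 0 left out and 152 with a robust prior. The cause was not tested. Leaving out 1 library gave 5 to 37, 4 to 41, 7 to 20 and 10 to 31 calls over all rows, and up to 231, 457, 214 and 544 in the protein-coding fit.

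Same-numbered libraries did not deviate together (r of -0.0667 to 0.105 over 7 pairs, against -0.0843 to 0.121 over 20 others), so the numbers were not taken as pairs. With the replicate block, 9, 13, 16 and 19 rows were called over all rows and 253, 158, 110 and 352 in the protein-coding fit. With the block 0 Hedgehog genes passed at 24 against 3 months in either fit (Boc -0.68, adjusted p = 0.278 over all rows and 0.0517 in the protein-coding fit), and 1 in the F test of the latter. Estimates of the block that turned sign were Gli1 (0.081 in both fits) and Cdon (-0.0046) at 24 against 19 months.

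Other sign changes were Gli3 at 19 against 3 months (quantile scaling 0.0286, median scaling 0.0347) and at 24 against 3 months (median scaling 0.0026), and Smo at 24 against 19 months (quantile 0.0071). Without 1 library, Gli1 at 24 against 19 months ranged from -0.163 to 0.0185, and Gli3 from -0.189 to 0.0696, -0.205 to 0.0537 and -0.109 to 0.055 over the 3 comparisons in the order above. Smo at 24 against 19 months ranged from -0.0559 to 0.0538, and Hhip at 19 against 3 months from -0.53 to 0.0279. Scube2 ranged from -0.0258 to 0.527 at 19 and from -0.472 to 0.1 at 24 against 3 months. The number of libraries and the unknown depth limit precision.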

Other observations

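The balance between the co-receptors Boc and Gas1 was looked at after the separate values had been seen, and is given as a description without a test. The ratio of Boc to Gas1 FPKM was 1.07, 0.981 and 0.632 in the 3-month libraries, 0.404, 0.381 and 0.398 at 19 months and 0.290, 0.450 and 0.367 at 24 months. Every older library lay below every 3-month library, and the 19- and 24-month libraries overlapped. Boc alone had this separation from 3 months, and Gas1 was picked after its values were seen, so the ratio adds no separate evidence. The sum of Boc, Gas1 and Cdon was 98.1 to 105.0 FPKM at 3 months, 108 to 117 at 19 months and 90.5 to 120 at 24 months. Every 19-month sum lay above every 3-month sum, and the 24-month sums overlapped both. The ratio of Ptch1 to Gli1, both target genes, was 1.80, 2.67 and 2.23 at 3 months, 2.01, 2.31 and 1.45 at 19 months and 1.35, 1.604 and 1.65 at 24 months.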
